A study of Mus musculus with 4 samples.

Results

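The JAK kinases and STAT factors measured in mouse thymocytes were 9 genes, Jak1, Jak2, Jak3, Tyk2, Stat3, Stat4, Stat5a, Stat5b and Stat6, taken by symbol from the 21926 genes of the count tables. Single-cell RNA sequencing had been run on unsorted thymus cells of 1 control mouse, Eif4g2 flox/flox without Cre (WT), and 1 mouse labelled CD4-Cre; Eif4g2 flox/flox (Eif4g2 cKO, the conditional knockout). Both were labelled as female and 5 weeks old, and both carried the floxed alleles, so the labels set the genotypes apart by the Cre transgene. Cd4-Cre is driven by regulatory sequence of Cd4 and acts in T lineage cells from about the double-positive stage onwards. A single mouse stands for each genotype, so the genotypes could be compared but not tested, and the intervals given cover counting error only.

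Cytokine receptors have no kinase of their own. A bound receptor brings JAK kinases on its chains together, the kinases phosphorylate the receptor tails, and STAT factors dock there, are phosphorylated, pair up and enter the nucleus to bind DNA. In the thymus, IL-7 signals through Jak1 and Jak3 to the STAT5 factors, which sustain double-negative (DN) cells and cells that have passed positive selection, whereas double-positive (DP) cells are largely refractory to it.

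The 9 genes lie on 7 chromosomes, and positions are those of GENCODE M21 on GRCm38. Jak1 spans chromosome 4, 101152367 to 101265282, Jak2 chromosome 19, 29251828 to 29313080, Jak3 chromosome 8, 71676296 to 71690575, and Tyk2 chromosome 9, 21104068 to 21131243. Stat4 spans chromosome 1, 51987148 to 52107189, and Stat6 chromosome 10, 127642986 to 127660957. Stat5b (100780731 to 100850724, minus strand), Stat5a (100859351 to 100885169, plus strand) and Stat3 (100885098 to 100939540, minus strand) stand side by side on chromosome 11. Stat5a and Stat3 run towards each other and share 72 bases at their ends, and the strand setting of the counting is not given in the sources used here, so reads in that stretch may have been counted for either gene. The gene spans run from 14.3 kb for Jak3 to 120 kb for Stat4, and levels are not compared between genes, since a tag near the 3′ end does not measure transcripts of different genes alike.

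The WT library held 18355050 unique molecular identifiers (UMIs, one per captured transcript) and the Eif4g2 cKO library 18056277. After the cell filter 6012 WT and 4335 Eif4g2 cKO cells remained, with at least 1000 UMIs each. They were clustered with the JAK and STAT genes left out of the clustering genes, and named from markers into DN-like (96 WT and 127 Eif4g2 cKO cells), cycling (1039 and 1321), DP-like (3303 and 2083), early post-selection-like (725 and 549) and mature single-positive-like (mature SP-like, 685 and 211) cells. The markers followed these names. Il2ra was at 385 and 303 CPM (UMIs of a gene per 1000000 UMIs of the class) in DN-like cells and at 16.9 or below in the other 4 classes, Cd69 was highest in early post-selection-like cells (160 and 164 CPM), and Klf2 was at 310 and 308 CPM in mature SP-like cells. DP-like cells were held by different clusters in the libraries: cluster 0 had 182 WT and 1880 Eif4g2 cKO cells, whereas clusters 1 and 2 had 1544 and 1577 WT cells and 121 and 82 Eif4g2 cKO cells. Cycling cells were split in a like way, with cluster 3 (276 WT, 814 Eif4g2 cKO) and cluster 7 (14 and 313) mostly from the Eif4g2 cKO library and cluster 6 (515 and 66) mostly from WT. Eif4g2 itself had 223 CPM (216 to 230) in the WT library and 274 CPM (266 to 281) in the library labelled Eif4g2 cKO. In the latter it was lower in cycling cells (216 CPM in WT, 187 CPM in Eif4g2 cKO) and higher in DN-like (145 and 202), DP-like (260 and 522), early post-selection-like (276 and 401) and mature SP-like cells (185 and 351 CPM), without overlap of the intervals in the last 3 of these. The exons that Cre removes are not given in the sources used here, so it is not known whether these counts could show the deletion. They do not bear out the label, and Eif4g2 cKO names a library by its label throughout. Y-linked genes had 2542 UMIs in the WT library and 1 in the other, against the labels, so sex and genotype cannot be told apart. Haemoglobin and other erythroid markers summed to 207 to 437 CPM in the 5 WT classes and to 9.1 to 88.2 CPM in the Eif4g2 cKO classes, and their part in the results was not tested.

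The first question was at which thymocyte stage each kinase is expressed. Jak1, which serves the receptors of the common γ chain, the gp130 and the interferon families, was highest after selection in both libraries. In WT cells it had 162 CPM (95% Poisson interval 132 to 198) in DN-like, 109 (102 to 116) in cycling, 294 (279 to 309) in DP-like, 401 (369 to 435) in early post-selection-like and 403 (379 to 429) in mature SP-like cells. The Eif4g2 cKO cells had 176 (150 to 206), 78.2 (73.1 to 83.4), 225 (210 to 242), 244 (218 to 272) and 274 CPM (238 to 314) in the same order. The order of the 5 classes was the same in both libraries, mature SP-like, early post-selection-like, DP-like, DN-like and cycling, and its highest level was 3.71 times its lowest in WT and 3.51 times in Eif4g2 cKO cells. The levels of mature SP-like cells and of early post-selection-like cells did not differ beyond counting error in either library, and in the Eif4g2 cKO library neither did early post-selection-like and DP-like cells.

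Jak3, the kinase of the common γ chain and thus the partner of Jak1 in IL-7 signalling, was rarely captured. WT cells had 11.4 CPM in DN-like (7 UMIs), 4.59 in cycling (36 UMIs), 4.22 in DP-like (22 UMIs), 10.2 in early post-selection-like (15 UMIs) and 14.6 in mature SP-like cells (37 UMIs). Eif4g2 cKO cells had 14.9 (13 UMIs), 4.25 (49 UMIs), 5.86 (20 UMIs), 11.2 (15 UMIs) and 6.49 CPM (5 UMIs). The lowest levels were in DP-like and cycling cells of both libraries. In WT, mature SP-like cells were 3.45-fold above DP-like cells, a log2 difference of 1.79 (0.99 to 2.62), while the 5 UMIs of the Eif4g2 cKO mature SP-like cells left an interval from -1.62 to 1.61. In the 46 WT erythroid-like cells, taken as cells that should hold little of it, 0 Jak3 UMIs were seen. Read as up to 3 UMIs, this allows 10.75 CPM, so at this depth levels under that value cannot be told from free RNA. Stat6 also had 0 UMIs there, and Jak2, Tyk2 and Stat4 had 1 each, at 3.58 CPM (0.09 to 19.96). Their levels within these ranges have the same limit.

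Jak2, the kinase of erythropoietin, thrombopoietin and interferon γ receptors, and Tyk2, the kinase of the type I interferon, IL-12 and IL-10 receptors, were both lowest in cycling or DN-like cells. Jak2 was at 24.4, 14.7, 35.3, 49.1 and 29.1 CPM in WT DN-like, cycling, DP-like, early post-selection-like and mature SP-like cells, and at 10.3, 13.5, 29.9, 29.9 and 27.3 CPM in Eif4g2 cKO cells. The WT rise from DP-like to early post-selection-like cells was 0.48 on the log2 scale (0.06 to 0.88), and the Eif4g2 cKO value was 0.00 (-0.56 to 0.54). Tyk2 was at 13.0, 10.97, 35.1, 38.9 and 31.1 CPM in the WT classes and at 9.16, 4.86, 13.8, 14.2 and 20.8 CPM in the Eif4g2 cKO classes. In the Eif4g2 cKO library, classes next to each other in the order of their Tyk2 levels did not differ beyond counting error.

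Among the STAT factors, Stat5b had a marked stage pattern. It carries, with its paralog Stat5a, the IL-7 signal. WT cells had 149 CPM (120 to 183) in DN-like, 133 (125 to 141) in cycling, 366 (350 to 383) in DP-like, 389 (358 to 423) in early post-selection-like and 202 (185 to 221) in mature SP-like cells. Eif4g2 cKO cells had 87.0 (68.5 to 109), 65.3 (60.7 to 70.1), 207 (192 to 223), 193 (170 to 218) and 98.7 CPM (77.7 to 124). As a share of all UMIs Stat5b thus peaked in DP-like and early post-selection-like cells, which did not differ beyond counting error in either library. In UMIs per cell, DP-like cells were the lowest of the 5 classes in both libraries, at 0.58 in WT and 0.34 in Eif4g2 cKO. In CPM Stat5b was lower in mature SP-like cells. Its log2 ratio of mature to early post-selection-like levels was -0.945 (-1.12 to -0.77) in WT and -0.97 (-1.36 to -0.595) in the Eif4g2 cKO library. Jak1 did not show this decline, with a mature over early log2 ratio of 0.01 (-0.14 to 0.16) in WT and 0.17 (-0.09 to 0.42) in the Eif4g2 cKO library.

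Stat5a stood at 58.5 CPM in DN-like, 36.2 in cycling, 80.55 in DP-like, 75.0 in early post-selection-like and 48.8 in mature SP-like WT cells. In Eif4g2 cKO cells it stood at 73.3, 23.4, 39.0, 41.2 and 26.0 CPM. The DN-like level was the highest of the 5 classes in the Eif4g2 cKO library and the third highest in WT. Relative to DP-like cells of the same library, DN-like cells had a log2 ratio of 0.91 (0.46 to 1.35) in the Eif4g2 cKO library and of -0.46 (-0.996 to 0.03) in WT, from 64 and 36 DN-like UMIs, and the difference between these ratios was not tested.

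Stat3, activated by IL-6, IL-10 and IL-21, and Stat4, activated by IL-12, shared a pattern. Stat3 was at 171 CPM in DN-like, 60.4 in cycling, 162 in DP-like, 132 in early post-selection-like and 105 in mature SP-like WT cells, and at 73.3, 37.3, 102, 79.4 and 62.3 CPM in Eif4g2 cKO cells. Stat4 was at 86.1, 14.8, 84.8, 57.3 and 68.9 CPM in the WT classes and at 33.2, 6.25, 39.0, 25.4 and 15.6 CPM in the Eif4g2 cKO classes. DN-like and DP-like cells were the highest classes for both genes in WT, without a difference beyond counting error between them, and cycling cells were the lowest. The drop in cycling cells was the deepest of the members for Stat4, whose highest level was 5.81 times its lowest in WT and 6.23 times in the Eif4g2 cKO library. Across the 10 class and library points the log2 levels of Stat3 and Stat4 had a Pearson r of 0.966, a description over points that share libraries and depth. With antigen-presenting-like cells added, Stat4 was no longer so near, since at least 3 genes stood nearer to Stat3, the third of them at an r of 0.928.

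Stat6, the factor of IL-4 signalling, was low in DN-like cells. It had 13.0 CPM (8 UMIs) and 14.9 CPM (13 UMIs) in WT and Eif4g2 cKO DN-like cells, 22.6 and 20.3 in cycling, 41.8 and 46.9 in DP-like, 66.2 and 52.4 in early post-selection-like and 39.4 and 37.6 CPM in mature SP-like cells. The order of the classes was the same in both libraries. Its DN-like level was 0.311-fold the DP-like level in WT and 0.318-fold in the Eif4g2 cKO library, log2 ratios of -1.69 (-2.92 to -0.68) and -1.65 (-2.60 to -0.84).

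**Figure D1:**
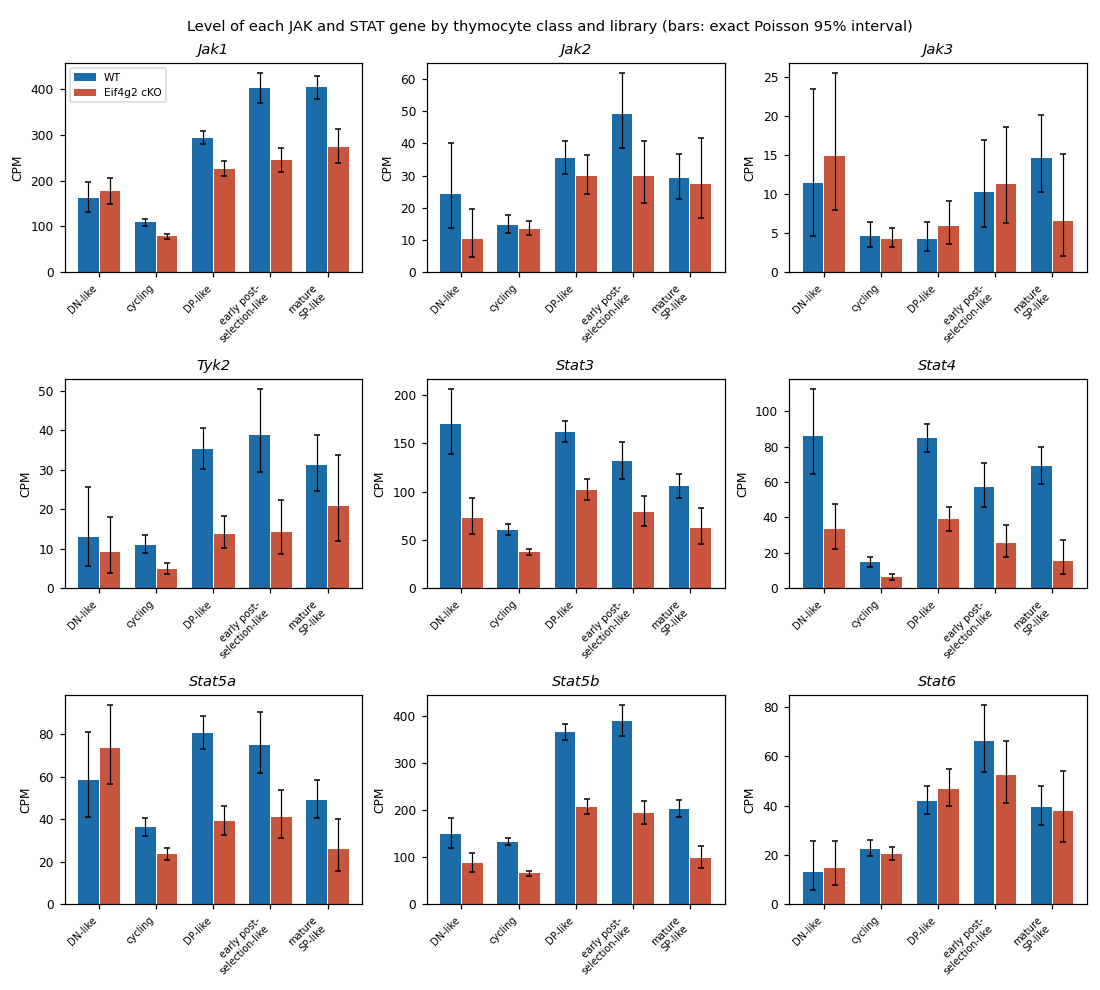
Level (CPM, linear axis from 0) of each JAK and STAT gene in 5 thymocyte classes, WT in blue and Eif4g2 cKO in red, with exact Poisson 95% intervals. Jak1 is highest in mature SP-like cells of both libraries, Stat5b peaks in DP-like and early post-selection-like cells, and Stat4 is lowest in cycling cells at 14.8 and 6.25 CPM.

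Set against DP-like cells, cycling cells were lower by more than 0.5 on the log2 scale for 8 of 9 members in each library, all but Jak3, where 52.8% of all genes with at least 50 UMIs were so in WT and 56.3% in the Eif4g2 cKO library. No member was higher in cycling cells by this measure, where 17.4% and 14.8% of all genes were. Counted as UMIs per cell, without scaling, all members but Stat4 were higher in cycling than in DP-like cells of both libraries. In WT cycling and DP-like cells Stat5b had 1.00 and 0.58 UMIs per cell, and Stat4 had 0.11 and 0.13. The median log2 ratio was -1.425 over the members and -0.57 over all genes in WT, and -1.45 and -0.65 in the Eif4g2 cKO library. Over all genes this ratio fell with gene span, and Jak1, Jak2, Stat3, Stat4 and Stat5b span more than 50 kb. Its median ran from 0.05 up to 5 kb to -0.85 for 50 to 100 kb and -1.08 over 100 kb in WT. In the Eif4g2 cKO library it ran from -0.07 to -0.94 and -1.27. In WT 67.4% and 75.0% of genes in the upper ranges were lower, and the part of span was not tested. Stat4 was at -2.52 (-2.83 to -2.22) and -2.64 (-3.07 to -2.21), and Stat6 at -0.89 (-1.18 to -0.60) and -1.21 (-1.502 to -0.91). Depth moved with this comparison, since cycling cells had a median of 5377 and 6411 UMIs per cell and DP-like cells of 1401 and 1359, and its part was not tested. With each cell thinned to 1000 UMIs the Stat4 ratios were -3.49 and -2.04.

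For the other classes the members' counts were near the shares of all genes. DN-like cells were lower than DP-like cells for 5 of 8 members in WT, beside 52.2% of all genes, and for 4 of 8 in the Eif4g2 cKO library, beside 54.3%. Stat5a in the Eif4g2 cKO library was the 1 member higher in DN-like cells, beside 14.5% of genes in WT and 11.9% in the Eif4g2 cKO library. Early post-selection-like cells were lower for Stat4 alone of 8 members in WT (-0.565, -0.92 to -0.23), beside 26.2% of genes, and likewise in the Eif4g2 cKO library (-0.61, -1.20 to -0.06), beside 31.7%. Stat6 was higher there in WT by 0.66 (0.30 to 1.01), beside 12.3% of genes, and 0 members were higher there in the Eif4g2 cKO library, beside 8.72%. Mature SP-like cells were lower for 3 of 9 members in WT, Stat3, Stat5a and Stat5b, beside 47.0% of genes, and for 4 of 8 in the Eif4g2 cKO library, those 3 with Stat4, beside 51.5%. Jak3 in WT was the 1 member higher in mature SP-like cells (11.8% of genes) and Tyk2 the 1 in the Eif4g2 cKO library (7.09% of genes), where its interval of -0.32 to 1.44 held 0.

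**Figure D2:**
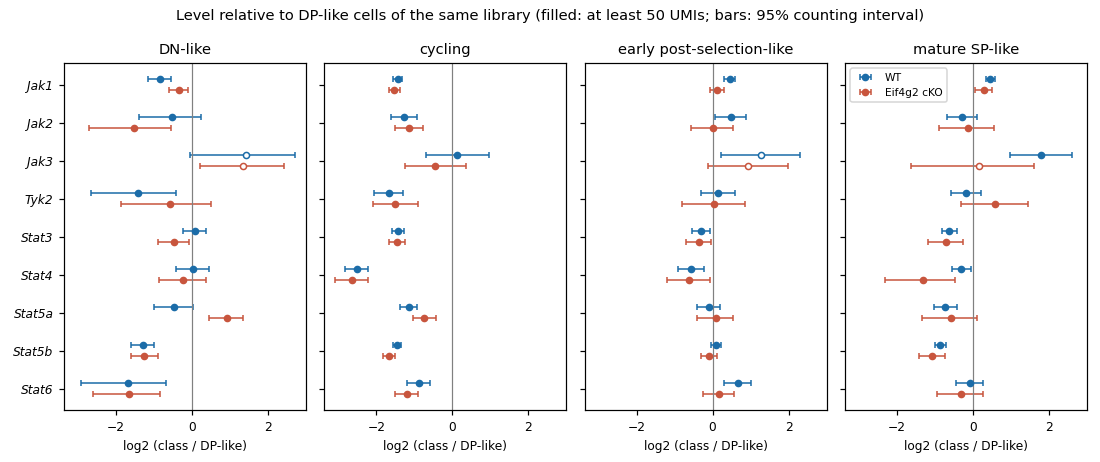
Log2 ratio of each class to DP-like cells of the same library, WT in blue and Eif4g2 cKO in red, with 95% counting intervals and open points for fewer than 50 UMIs. In cycling cells 8 of 9 members lie below -0.5 in both libraries, and in DN-like cells Stat5a lies at -0.46 in WT and at 0.91 in the Eif4g2 cKO library.

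The balance of the STAT5 paralogs was measured as the share of Stat5b among the UMIs of both, which needs no scaling. It was 82.0% (exact binomial interval 80.3 to 83.5) in WT and 84.2% (81.5 to 86.6) in the Eif4g2 cKO library for DP-like cells. It came to 83.85% and 82.4% in early post-selection-like and to 80.6% and 79.2% in mature SP-like cells. The intervals of the libraries overlapped in all 3 of these classes. In DN-like cells the share was 71.9% (63.2 to 79.5) in WT and 54.3% (45.7 to 62.7) in the Eif4g2 cKO library, with intervals that did not overlap, from 128 and 140 UMIs. Classes drawn from marker scores instead of clusters gave 63.08% for the Eif4g2 cKO DN-like cells. In cycling cells it was 78.6% (76.27 to 80.8) and 73.6% (70.8 to 76.26), with intervals that fell just short of each other.

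**Figure D3:**
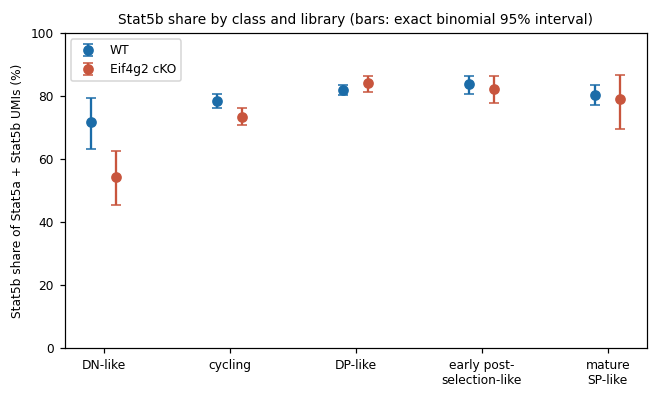
Share of Stat5b among Stat5a and Stat5b UMIs (percent, axis from 0 to 100) by class, WT in blue and Eif4g2 cKO in red, with exact binomial 95% intervals. The DN-like values of 71.9% and 54.3% stand below the DP-like values of 82.0% and 84.2%.

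Within the cycling cells the share moved with cell depth, a split chosen after the values were seen. In cells of more than 10000 UMIs, 232 in WT and 385 in the Eif4g2 cKO library, Stat5b made up 71.6% (67.5 to 75.3) and 67.7% (63.3 to 71.8) of the STAT5 UMIs. The shallower cycling cells had 83.4% (80.6 to 85.9) and 79.0% (75.3 to 82.4). Stat5b was lower in the deep cells, with a log2 ratio to the shallower ones of -0.87 (-1.06 to -0.69) in WT and -0.72 (-0.93 to -0.51) in the Eif4g2 cKO library, while Stat5a was at 0.12 in both (-0.22 to 0.47 and -0.24 to 0.48). Lower in the deep cells of both libraries were also Jak1, at -0.60 (-0.80 to -0.40) and -0.425 (-0.62 to -0.23), Jak2, at -0.63 (-1.20 to -0.075) and -0.77 (-1.25 to -0.29), and Stat3, at -0.499 (-0.77 to -0.23) and -0.35 (-0.63 to -0.067). Tyk2 went the other way, at 0.31 (-0.34 to 0.96) in WT and 1.08 (0.19 to 2.04) in the Eif4g2 cKO library, the last from 41 and 15 UMIs. The intervals of Jak3, Stat4 and Stat6 held 0 in both libraries.

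The early post-selection-like cells were also of more than one kind. Cluster 4 (619 WT and 465 Eif4g2 cKO cells) was led by Itm2a, Cd5 and Cd2, and cluster 10 (106 and 84 cells) by genes such as Tnfrsf9, Nr4a1 and Cd69, known to follow T cell receptor signals closely. Jak1 was at 443 CPM (405 to 484) in cluster 4 and 259 (207 to 319) in cluster 10 of WT, and at 258 (227 to 293) and 209 CPM (166 to 260) in the Eif4g2 cKO library. Stat5b was at 434 CPM (397 to 475) and 238 (189 to 296) in WT, and at 229 (199 to 261) and 106 CPM (76.0 to 144) in the Eif4g2 cKO library. The intervals of the clusters did not overlap for Stat5b in either library, and for Jak1 they overlapped in the Eif4g2 cKO library but not in WT. Stat3 was at 126 and 152 CPM in WT and 75.9 and 87.8 CPM in the Eif4g2 cKO library, with overlapping intervals. Tyk2 was higher in cluster 10 of WT, at 28.3 CPM (19.4 to 40.0) in cluster 4 and 74.3 (48.1 to 109.7) in cluster 10, and stood at 15.8 (8.85 to 26.1) and 10.3 CPM (2.81 to 26.4) in the Eif4g2 cKO library, from 15 and 4 UMIs.

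The second question was how the 9 genes differed between the genotypes within each class, where each direction rests on the label Eif4g2 cKO of a library in which Eif4g2 itself was lower only in cycling cells of the 5 classes. Ratios were read where the libraries together held 50 UMIs or more of a member in a class. Of these 38 ratios, 35 were below 0, 26 were below -0.5 on the log2 scale and 0 were above 0.5. The intervals of 27 lay wholly below 0 and of 0 wholly above, and 30 of the 38 ratios were below the median of all genes in their class. No count of such intervals over all genes is given here, so the 27 has no background to be read against. The 38 ratios also come from the same 9 genes and the same libraries, and are not separate results. The counts of members stood beside a shift of all genes, whose median log2 ratio was -0.10 in DN-like, -0.28 in cycling, -0.18 in DP-like and -0.25 in both early post-selection-like and mature SP-like cells. Of all genes 57.0%, 71.9%, 62.3%, 66.7% and 65.7% were below 0 in these classes, beside 3 of 5, 9 of 9, 7 of 8, 8 of 8 and 8 of 8 members. In the library labelled Eif4g2 cKO 3 of 5 members were lower in DN-like cells (26.8% of all genes), 5 of 9 in cycling (35.9%), 5 of 8 in DP-like (29.5%), 7 of 8 in early post-selection-like (35.4%) and 6 of 8 in mature SP-like cells (35.9%). The shares of all genes that were higher were 10%, 3.21%, 8.63%, 7.65% and 8.95% in the same order.

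Stat5b was lower in the library labelled Eif4g2 cKO in all 5 classes. Its log2 ratio, Eif4g2 cKO over WT, was -0.78 (-1.24 to -0.33) in DN-like, -1.03 (-1.16 to -0.89) in cycling, -0.82 (-0.95 to -0.70) in DP-like, -1.01 (-1.23 to -0.80) in early post-selection-like and -1.04 (-1.40 to -0.69) in mature SP-like cells. The last is 0.488-fold the WT level, from 514 WT and 76 Eif4g2 cKO UMIs, and was -0.54 at the finer clustering. Markers within the mature SP-like class differed between the libraries too. Itm2a (582 CPM in WT, 230 in Eif4g2 cKO), Ccr7 (306 and 169) and S1pr1 (118 and 62.3) were lower. Cd4 (341 and 510 CPM) and Gimap6 (634 and 709) were higher, and Klf2 (310 and 308) was alike. The part of this make-up in the mature SP-like ratios of all members was not tested. Stat5a was lower in 4 classes, at -0.63 (-0.87 to -0.38) in cycling, -1.05 (-1.34 to -0.76) in DP-like, -0.865 (-1.36 to -0.39) in early post-selection-like and -0.91 (-1.67 to -0.22) in mature SP-like cells. In DN-like cells, a stage before Cd4-Cre is known to act, its ratio was 0.33 (-0.28 to 0.96) and turned to -0.17 in classes drawn from marker scores, while Stat3, Stat4 and Stat5b were lower there too.

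Stat4 and Stat3 were lower in every class as well, with each class taken as a whole. Stat4 had ratios of -1.37 (-2.08 to -0.69) in DN-like, -1.24 (-1.69 to -0.81) in cycling, -1.12 (-1.41 to -0.84) in DP-like and -1.17 (-1.79 to -0.58) in early post-selection-like cells. Its mature SP-like ratio of -2.14 (-3.12 to -1.30), from 175 WT and 12 Eif4g2 cKO UMIs, was the lowest among the members, and its interval overlapped that of the DP-like ratio. That ratio was -1.13 in classes drawn from marker scores. The 11 markers of NKT or γδ T cells summed, within mature SP-like cells, to 335 CPM for WT and 162 CPM for the Eif4g2 cKO library. Most of either sum came from Nkg7 (222 and 110 CPM) and Ly6c2 (54.3 and 3.9 CPM), which are mature SP markers too. Among the others, Xcl1 (3.5 and 9.1), Fcer1g (2.4 and 3.9) and Ccl5 (10.6 and 14.3) were higher and the rest lower or absent. Stat4 was at 141 CPM (92.9 to 205) in the 53 WT NKT or γδ T-like cells, and the part of such cells was not tested. Stat3 had ratios of -1.22 (-1.69 to -0.76) in DN-like, -0.69 in cycling, -0.67 in DP-like, -0.73 in early post-selection-like and -0.76 (-1.23 to -0.31) in mature SP-like cells, the last of which was -0.12 at the finer clustering. With the median gene set to 0 the Stat3 ratio no longer passed -0.5 in cycling (-0.41), DP-like (-0.49) and early post-selection-like cells (-0.48). Single clusters differed, with levels given here as CPM, WT first. Stat3 was not lower in DP-like clusters 1 (169, 169) and 2 (151, 157) or in cycling cluster 6 (64.2, 69.7). These held 121, 82 and 66 Eif4g2 cKO cells. Stat3 was lower in DP-like cluster 0 (183, 93.4) and, with overlapping intervals, in cycling clusters 3 (38.4, 29.6) and 8 (106, 77.1). The part of cluster make-up in the Stat3 ratios was not tested.

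Among the kinases, Tyk2 showed the lowest ratios, -1.17 (-1.69 to -0.67) in cycling, -1.35 (-1.845 to -0.88) in DP-like and -1.45 (-2.28 to -0.68) in early post-selection-like cells, with DP-like levels of 35.1 CPM in WT and 13.8 CPM in the Eif4g2 cKO library. In mature SP-like cells its ratio was -0.58 with an interval that held 0 (-1.46 to 0.21), and it lay between -0.97 and -0.13 under the alternatives in processing. Jak1 was lower by more than 0.5 after selection, at -0.72 (-0.92 to -0.52) in early post-selection-like and -0.56 (-0.78 to -0.34) in mature SP-like cells, although setting the median gene to 0 brought both within the threshold, to -0.47 and -0.31, and thinning each cell to 1000 UMIs brought the last value to -0.025. Before that stage Jak1 was at 0.12 (-0.25 to 0.50) in DN-like, -0.48 (-0.61 to -0.34) in cycling and -0.38 (-0.51 to -0.26) in DP-like cells. The direction in DN-like cells was not stable, at -0.39 in classes drawn from marker scores, -0.20 with the mean over cells, -0.07 with the tighter cell filter and -0.07 without cells above 10000 UMIs. Jak2 passed the threshold in early post-selection-like cells alone (-0.71, -1.31 to -0.14), and not with classes drawn from marker scores (-0.37) or at the finer clustering (-0.48). Jak3 could be read only in cycling cells, where its ratio was -0.11 (-0.76 to 0.55).

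Stat6 differed from its relatives in this respect. Its ratios were -0.15 (-0.44 to 0.14) in cycling, 0.16 (-0.14 to 0.465) in DP-like, -0.34 (-0.80 to 0.12) in early post-selection-like and -0.06 (-0.71 to 0.545) in mature SP-like cells. All 4 intervals held 0, and the DN-like cells had too few UMIs.

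**Figure D4:**
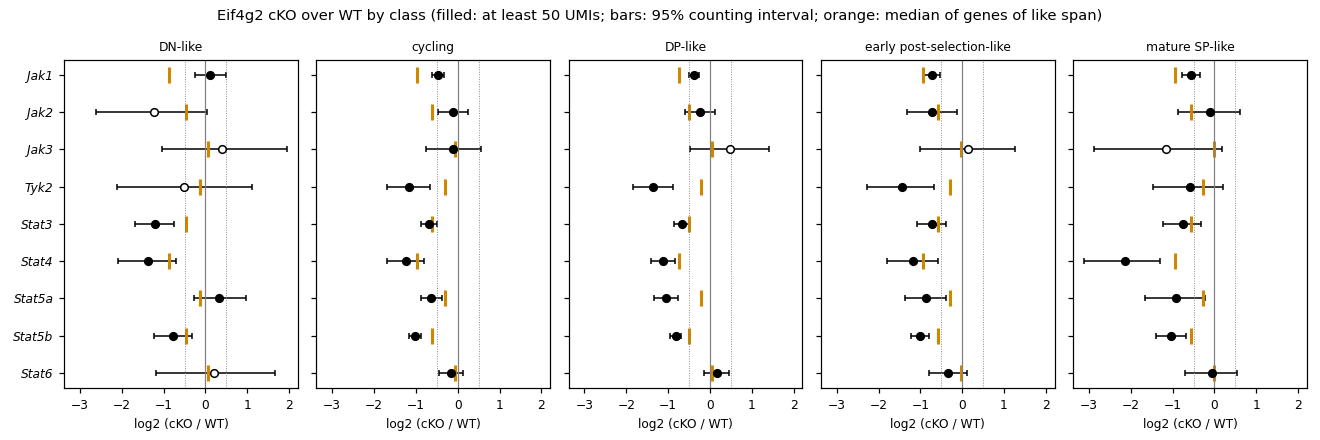
Log2 ratio, Eif4g2 cKO over WT, for each member in 5 classes, with 95% counting intervals, dotted lines at -0.5 and 0.5, open points for fewer than 50 UMIs and orange marks for the median of all genes in the same range of gene span. Stat4 and Stat5b lie below -0.5 in all 5 classes, as does Stat3 before the median gene is set to 0, which brings it to -0.41 in cycling, -0.49 in DP-like and -0.48 in early post-selection-like cells. Stat6 lies near 0.

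The genotype ratio moved with gene span across all genes, and the members differ in span. In DP-like cells the median log2 ratio was 0.21 for genes up to 5 kb, 0.06 for 5 to 20 kb, -0.22 for 20 to 50 kb, -0.495 for 50 to 100 kb and -0.75 for genes over 100 kb, and in mature SP-like cells it ran from 0.11 to -0.95. Jak3 and Stat6 fall in the 5 to 20 kb range, Tyk2 and Stat5a in that of 20 to 50 kb, Jak2, Stat3 and Stat5b in that of 50 to 100 kb, and Jak1 and Stat4 above 100 kb. Of the 38 ratios, 28 were below the median of genes of like span. Jak1 was above that median in all 5 classes, by 0.21 to 0.49 in the 4 classes where it was lower in the Eif4g2 cKO library and by 0.995 in DN-like cells, where it was not. Stat3 differed from it by -0.19 to -0.08 in the 4 classes other than DN-like cells, where it differed by -0.75, and Stat6 by -0.31 to 0.11 in the 4 classes with enough UMIs. Stat5b was below it in all 5 classes, with differences of -0.31 to -0.465. Among the ratios with enough UMIs, differences beyond -0.8 were those of Tyk2 in cycling (-0.86), DP-like (-1.13) and early post-selection-like cells (-1.17), of Stat4 in mature SP-like cells (-1.19) and of Stat5a in DP-like cells (-0.83). The part of gene span in the results was not tested.

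**Figure D5:**
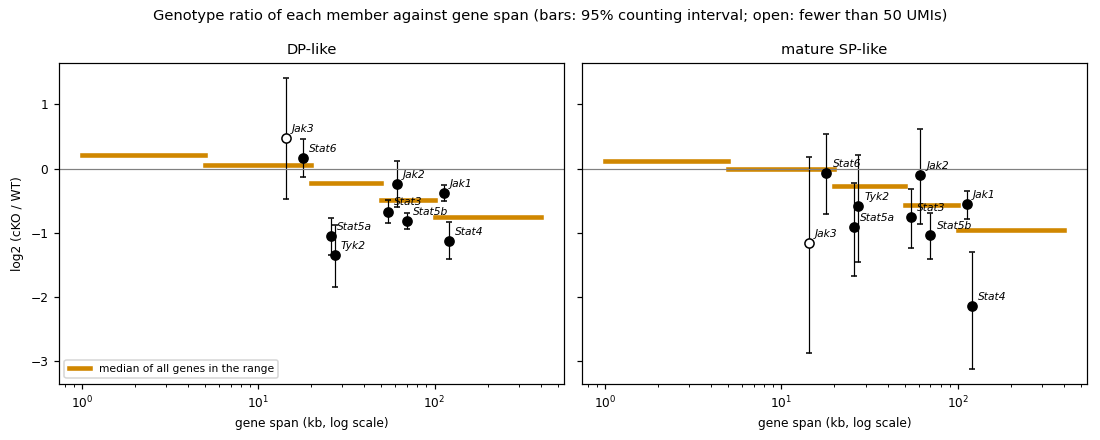
Log2 ratio, Eif4g2 cKO over WT (with 95% counting intervals) against gene span in kb on a log axis, in DP-like and mature SP-like cells, with orange lines for the median of all genes in each range of span (the ranges up to 5 kb and over 100 kb are open-ended). Tyk2 and Stat5a lie below the line of their range in DP-like cells, Stat4 in mature SP-like cells, and Jak1 above its line in both.

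Upstream and downstream of the members, 3 lists of pathway genes were counted. Of 23 cytokine receptor chains 13 had enough UMIs in mature SP-like cells, of which 8 were lower and 1 was higher in the Eif4g2 cKO library, with a median log2 ratio of -0.615, where the share of all genes was 35.9% lower and 8.95% higher. Il6ra, the IL-6 receptor chain, was lowest, with a WT level of 61.0 CPM and an Eif4g2 cKO level of 7.79 CPM, a log2 ratio of -2.97 (-4.44 to -1.81). Il4ra, the IL-4 receptor chain, was next at -1.53 (-2.44 to -0.73), and the highest were Crlf2, a chain of the TSLP receptor, at 0.52 (-0.03 to 1.05) and Ifngr1, a chain of the interferon γ receptor, at 0.43 (-0.07 to 0.91). Of 19 feedback regulators 12 were measurable, 6 lower and 0 higher, with a median of -0.54. The phosphatases Ptpn6 (-1.06, -1.35 to -0.78) and Ptprc (-1.004, -1.185 to -0.83) were lowest, and Socs1 (0.24, -0.05 to 0.51) and Usp18 (0.245, -0.34 to 0.80) were highest. Of 16 targets and partners 12 were measurable, 6 lower and 1 higher, with a median of -0.50. Bcl6, a transcriptional repressor, was at -1.75 (-2.51 to -1.07), the kinases Pim2 and Pim1 at -1.18 (-1.83 to -0.58) and -0.04 (-0.68 to 0.56), and Gata3, a factor of CD4 lineage cells, at 0.61 (0.23 to 0.97).

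Some other genes followed the members closely across 12 class and library points, those of the 5 classes and of antigen-presenting-like cells, which share their libraries and depth. The measure was Pearson r of log2(CPM + 10) over 7008 genes with at least 500 UMIs, and only the order is of use as a description. The nearest to Stat5b was Slc44a2 (0.972), to Stat5a Mgmt (0.966), to Stat3 Mga (0.952), to Stat4 AC149090.1 (0.935), to Stat6 Rap2c (0.980) and to Jak1 Slc50a1 (0.933). For Jak2 it was Ubl3 (0.961) and for Tyk2 Rtn4rl1 (0.961). No member was among the 3 genes nearest to another member.

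In the RefSeq promoter windows of the 9 genes on GRCm38, 12 windows of 300 bases from 250 before to 50 after a start, neither TTCNNNGAA, the palindrome that most STAT dimers bind, nor TTCNNNNGAA, the wider form known for Stat6, was found. Of all 32851 windows 8.30% held the first and 6.95% the second. The absence says only that these letters are not in these windows.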

How the data were processed

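Thymus cells of 1 WT and 1 Eif4g2 cKO mouse were captured on the DNBelab C4 system. The authors deposited UMI counts per gene and cell, made with dnbc4tools (version 2.1.3 in the series text, 3.0 in the file header) on mm10, without normalization. No filter on doublets could be seen, no doublet caller was run here, and doublets were kept. Values of the oligo libraries are not used here. The 1055 cell names found in both libraries are serial names, not barcode sequences.

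Cells with at least 50 genes and at most 10% mitochondrial UMIs were kept. With scanpy 1.11.5, each cell was scaled to 10000 UMIs and log-transformed, and 2000 variable genes (without 72 genes of the pathway and Eif4g2) gave 30 principal components, 20 neighbours and Leiden clusters (leidenalg 0.10.2, resolution 1.0), first for all cells and then for the T lineage. Clusters were named where at least 3 listed markers were raised, so the names are rebuilt. UMIs were summed per class and library and turned into CPM with Poisson intervals (exact), log2 ratios had exact conditional binomial intervals and shares exact (Clopper-Pearson) ones, all at 95% (scipy 1.17.1), for counting error only. A gene was called lower or higher beyond 0.5 on the log2 scale with at least 50 UMIs over both sides. Classes under 20 cells in a library gave no ratio. A count of 0 was read as up to 3 UMIs. Of the gene identifiers 97.9% matched GENCODE M21.

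The members, lists and markers were chosen with earlier results of these data known. All 9 members are named, as are the 2 highest and 2 lowest of each pathway list in mature SP-like cells and the genes most like each member with at least 500 UMIs. Not every JAK-STAT gene in the files is reported here. The scripts were tested on simulated data. The 12 alternatives changed the cell filter, clustering, classes, summing, depth, scaling and UMI minimum, and leaving out cells above 10000 UMIs was added after seeing the data.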

Additional observations from a re-analysis of the deposited data

How the results depend on the processing

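Among the log2 ratios of single members between genotypes, 423 of 440 values under the alternatives lay within the counting interval of the value reported, as did 608 of 722 ratios between classes. Changing the UMI minimum alters no ratio, so these counts include values that could not move, 38 between genotypes for each minimum and 67 between classes. With the median gene set to 0, 40 ratios between classes moved and 1 was reversed, beside 26 that stayed. After thinning 21 moved and 38 stayed. The number of members lower than in DP-like cells ranged over the alternatives from 7 to 8 in WT and 7 to 9 in Eif4g2 cKO cycling cells, from 3 to 8 and 3 to 7 in DN-like, from 0 to 1 and 0 to 2 in early post-selection-like and from 0 to 4 and 1 to 4 in mature SP-like cells. The ratio of Jak2 in WT DN-like to DP-like cells turned to 0.008 when the median gene was set to 0. The counts that follow are of members lower or higher in the Eif4g2 cKO library than in WT within a class. With the median gene set to 0, 3 members were lower in cycling and 4 in early post-selection-like cells. In DN-like cells 5 members were lower with classes from marker scores and 5 with a minimum of 1 UMI on each side, and 1 was higher with the mean over cells. With cells thinned to 1000 UMIs 3 members were lower in cycling and 3 in mature SP-like cells, where few UMIs were left. In DN-like cells 0 were lower, since no member had enough UMIs to be read. The shares of all genes under the alternatives are not given here. These counts of members therefore show only how the calls moved with the processing. The Stat5b share of Eif4g2 cKO DN-like cells was 63.08% with marker scores and 33.33% after thinning. In Eif4g2 cKO cycling cells it was 78.83% after thinning, 78.80% with the tighter cell filter and 78.99% without cells above 10000 UMIs, and in WT 81.90%, 83.72% and 83.38%. The cause was not tested in these cases. No paired analysis was possible because each genotype had 1 library. The counts of Jak3, and those of Jak2, Tyk2 and Stat6 in DN-like cells, were too low to show any but large differences.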

Other observations

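Outside the 5 classes compared, the NKT or γδ T-like cells (53 in WT, 14 in the Eif4g2 cKO library, too few for a ratio) had a different profile of the members. In WT they held Stat4 at 141 CPM (92.9 to 205), Stat5b at 52.2 CPM (25.0 to 96.0) and Jak1 at 459 CPM (368 to 566). The Stat5b interval lay below the WT intervals of all 5 other T cell classes, and the Stat4 interval overlapped those of DN-like cells at 86.1 CPM (64.5 to 113) and, at its lower end, of DP-like cells at 84.8 CPM (77.0 to 93.0). In antigen-presenting-like cells (65 and 26 cells) Jak1 was the 1 member with at least 50 UMIs, at 202 CPM in WT (42 UMIs) and 368 CPM in the Eif4g2 cKO library (22 UMIs), a log2 ratio of 0.86 (0.05 to 1.64). The make-up of this class moved with it, since the B cell markers Cd79a (945 CPM in WT, 134 CPM in Eif4g2 cKO) and Ms4a1 (371 and 16.8) and the marker Ly6c2 (1123 and 167.5) were lower, and the thymocyte genes Rag1 (164 and 703.5) and Cd8b1 (824 and 1926 CPM) higher, and its part was not tested. In the 46 WT erythroid-like cells Jak1 was at 35.8 CPM (10 UMIs), Stat3 at 28.6 CPM (8 UMIs), Stat5b at 14.3 CPM (4 UMIs) and Stat5a at 10.75 CPM (3 UMIs), each below the level of these genes in all 5 WT T cell classes.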
